A study of Mus musculus with 4 samples.

Results

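The basement membrane and integrin genes described here are 40 genes, named by symbol, out of 52636 in the deposited matrices. They comprise 6 type IV collagen chains, 10 laminin chains, 5 linker and proteoglycan genes (Nid1, Nid2, Hspg2, Agrn and Col18a1), 6 genes of the hemidesmosome and its anchoring fibril (Col17a1, Col7a1, Dst, Itga6, Itgb4 and Cd151), 11 genes for other integrin chains and dystroglycan, and 2 interstitial matrix glycoproteins (Fn1 and Sparc). All 40 symbols were found. The genes were measured by droplet single-cell RNA sequencing of the 3′ ends of transcripts in EpCAM-sorted cells from mammary glands of mice 6 months old. All animals, controls included, carried pellets of estradiol and progesterone. They were either wild type (WT) for the estrogen receptor gene Esr1 or carried its Y541S mutation, and received either vehicle or 30 mg/kg giredestrant by mouth once a day for 4 days. Giredestrant, given orally, blocks the estrogen receptor and promotes its degradation. Each of the 4 groups was 1 library, and the number of animals per library and the number of mutant alleles are not given in the sources used here.

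The basement membrane is the sheet of extracellular matrix on which the mammary ducts and alveoli rest. Networks of type IV collagen and laminin form it, nidogens and perlecan link them, and epithelial cells hold on to it through integrins and dystroglycan, with hemidesmosomes as the anchoring points that join laminin outside the cell to keratins inside it. In the mammary gland the basal (myoepithelial) cells lie directly on this sheet, while most luminal cells face the lumen and touch it less.

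Cells were kept if their UMIs (counted molecules) reached 1000, their detected genes 500 and the mitochondrial share did not exceed 15%, and they were placed in classes by marker UMIs per 10000. Hormone-sensing cells had 10 or more of Esr1, Prlr, Areg and Foxa1 together, secretory cells 10 or more of Wfdc18, Csn3, Elf5 and Kit, and basal cells 20 or more of Acta2, Myh11, Mylk and Tagln. Cells meeting more than 1 of these gates were left out, and hormone-sensing cells were split at 3 Krt14 UMIs per 10000. In the order WT vehicle, WT giredestrant, Y541S vehicle and Y541S giredestrant, which all lists of 4 values below follow, the classes held 627, 1034, 2074 and 1499 hormone-sensing Krt14-low cells, 680, 607, 1553 and 1330 secretory cells and 4832, 998, 2951 and 3641 basal cells. Hormone-sensing Krt14-high cells numbered 15, 9, 22 and 980, so that class was described in the Y541S giredestrant library alone. Median UMIs of the kept cells ranged from 6267.5 in the Y541S giredestrant library to 21927 in the WT giredestrant library, and the libraries held 70781982 to 132660456 UMIs in all. The source label calls the cells mature luminal, whereas basal-gated cells made up 32.9% to 68.2% of the kept cells. Of the markers that no gate used, Pgr, Cited1, Ly6a and Prom1 summed to 539 to 1638 CPM in hormone-sensing Krt14-low cells and to 19.8 to 60.6 CPM in secretory cells. Lalba, Aldh1a3, Cd14 and Ltf summed to 538 to 1103 CPM in secretory and to 11.7 to 37.0 CPM in hormone-sensing Krt14-low cells. Fibroblast markers summed to between 149 and 417 CPM in basal cells, mostly Dcn. Cell barcodes shared between 2 libraries numbered 7 to 23 per pair.

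Levels are in CPM, the UMIs of a gene per 1000000 UMIs summed over a class of a library. With 1 library per group there was no replicate and hence no test and no p-value, and the 95% intervals given cover counting error only. Ratios are given on the log2 scale relative to the median gene of the comparison, among genes with 20 or more UMIs in both sums together, and a gene was counted as higher or lower at 1.5-fold or more. Beside each count of the 40 genes stands the share of all such genes counted the same way. The 4 comparisons within a class share libraries, so they are not independent of each other.

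Most of the 40 genes were basal genes. Of the 3 classes present in every library (hormone-sensing Krt14-low, secretory and basal), the basal class had the highest CPM in all 4 libraries for 22 of them. Sparc, a matricellular glycoprotein that binds collagen, stood at 1078, 1079, 1162 and 1342 CPM in basal cells and at 12.4 CPM or less in the other 2 classes. Nid1, which links laminin to type IV collagen, had 20.3, 30.4, 29.2 and 44.0 CPM in basal cells and at most 1.27 CPM in the others. Hspg2 (perlecan, a heparan sulfate proteoglycan), Col18a1, Col17a1, Col7a1, Itga1, Itga5, Itga9, Itga6 and Itgb1 also had their highest level in basal cells of every library. The genes outside these 22 were highest in a luminal class in at least 1 library. Lama5, the alpha chain of the common adult epithelial laminin, had its highest level in hormone-sensing Krt14-low cells in every library, at 158, 202, 197 and 203 CPM, against 52.5, 61.9, 57.6 and 50.3 CPM in basal cells. Itgb8, a partner of Itgav, was highest in secretory cells, at 78.5, 60.8, 61.6 and 78.8 CPM, against 5.27 CPM or less in hormone-sensing Krt14-low cells. Basal cells were nearer, with Itgb8 at 41.6 CPM in WT vehicle, 42.8 CPM in WT giredestrant and 34.0 CPM in Y541S vehicle. For 15 genes the class with the highest level differed between libraries. Among them, Lamc1, Dst and Itgb5 were highest in hormone-sensing Krt14-low cells in most libraries. Itgav and Itgb6 were highest in basal cells in none. The members Col4a3, Col4a4, Lama2, Lamc3 and Nid2, stayed under 10 CPM in all these classes.

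**Figure D1:**
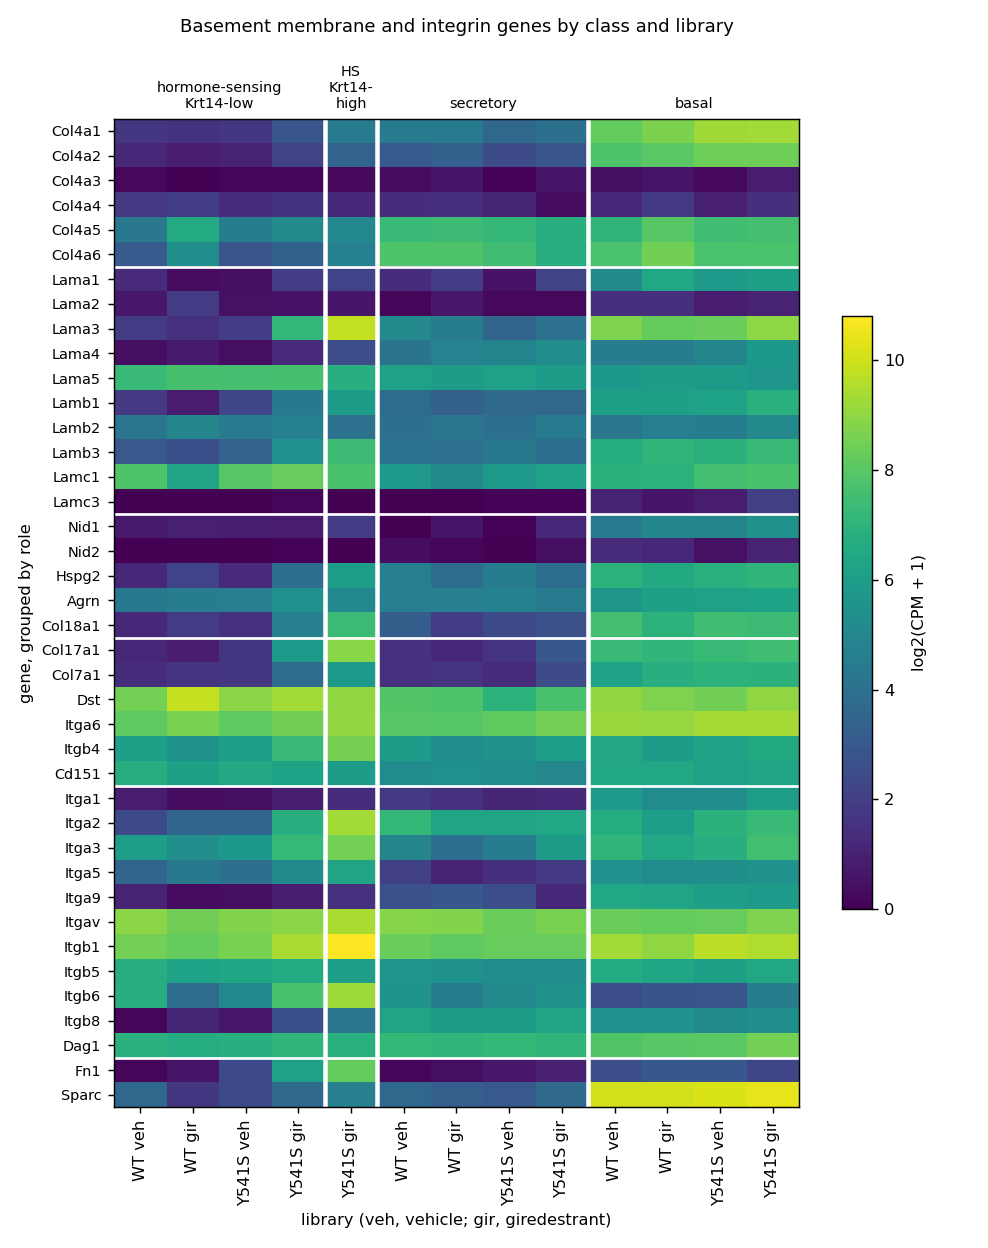
Level of each of the 40 genes, as log2(CPM + 1), by cell class (blocks of columns) and library (columns), with genes grouped by role (blocks of rows). The basal block is bright for most genes, Lama5 is brighter in the hormone-sensing blocks, and the Krt14-high column of the Y541S giredestrant library is bright for Lama3, Col17a1, Itga2, Itgb1 and Itgb6 but darker than the basal columns for Sparc and Col4a1.

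The type IV collagen genes lie in head-to-head pairs, and the pairs behaved differently. Col4a1 and Col4a2, which encode the chains of the ubiquitous network, are transcribed in opposite directions from start sites 21 bases apart on chromosome 8 (GRCm38; Col4a1 at 11198423 to 11312826, Col4a2 at 11312805 to 11449287). Col4a5 and Col4a6 lie on chromosome X, at 141475385 to 141689234 and at 141165403 to 141474076 in the gene annotation. The RefSeq start sites used for the sequences below are 141475419 for Col4a5, which lies inside that annotated gene, and 141474076 for Col4a6, 1343 bases apart. The upstream sequences of the second pair are shown because these neighbours were higher together in WT hormone-sensing Krt14-low and basal cells under giredestrant. They come from RefSeq (GRCm38.p6) and run from 250 bases upstream of the start site to the end of the GC box, GGGCGG or its reverse complement, which is in capitals. The first base of the GC box lies 30 bases upstream of the RefSeq start site in Col4a5, where the box falls inside the annotated gene (sequence at chrX:141475169-141475394, plus strand) and 21 bases upstream in Col4a6 (sequence at chrX:141474092-141474326, minus strand).
Col4a5: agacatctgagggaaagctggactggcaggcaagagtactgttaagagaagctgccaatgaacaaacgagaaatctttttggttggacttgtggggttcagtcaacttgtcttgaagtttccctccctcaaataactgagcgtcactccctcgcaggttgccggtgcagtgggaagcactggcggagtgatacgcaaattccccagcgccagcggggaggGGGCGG
Col4a6: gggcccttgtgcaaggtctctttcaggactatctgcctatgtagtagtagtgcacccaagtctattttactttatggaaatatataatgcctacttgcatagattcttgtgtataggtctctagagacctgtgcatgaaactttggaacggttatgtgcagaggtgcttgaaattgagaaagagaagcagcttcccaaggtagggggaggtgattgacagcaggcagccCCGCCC
Promoter windows (250 bases before to 50 bases after a RefSeq start site) were found for 30 of the 40 genes, 38 windows in all. A GC box on either strand stood in 24 of the 38 (63.2%), against 35.7% of 32851 windows of all genes. The windows of Col4a1 and Col4a2, which share 78 bases, were at 74% and 73.7% GC, against 52.7% for Col4a5 and 48.3% for Col4a6 (median of all windows 52.7%). The palindromic estrogen response element (GGTCA and TGACC with 3 bases between) was in 0 of the 38 windows and in 0.0700% of all windows. The AP-1 motif TGANTCA was in 2 of the 38, of Itga3 and Itga9, and in 7.81% of all windows. Both strands were searched for each motif. Neither of the last 2 motifs was in the windows of Col4a5 and Col4a6, so no match overlapped another there.

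Col4a5 and Col4a6, chains of a type IV collagen network of epithelial basement membranes, stood at 103 CPM or more in basal and secretory cells of every library. In hormone-sensing Krt14-low cells Col4a5 stood at 19.0, 97.0, 22.5 and 34.4 CPM and Col4a6 at 7.48, 40.5, 6.23 and 9.18 CPM. The WT giredestrant value was the highest for each gene, and the other 3 libraries lay between 19.0 and 34.4 CPM for Col4a5 and between 6.23 and 9.18 CPM for Col4a6. Relative to WT vehicle the log2 ratio was 1.91 (95% counting interval, 1.76 to 2.08) for Col4a5 and 2.0 (95% counting interval, 1.75 to 2.26) for Col4a6. In Y541S the same ratios were 0.27 and 0.22. Cells with a Col4a5 UMI made up 24.8% of WT giredestrant and 5.83% of WT vehicle hormone-sensing Krt14-low cells after every cell was thinned to 3000 UMIs, with 12 and 9 shallower cells left out (78.7% and 36.4% unthinned). Among secretory cells the thinned share was between 24.8% and 35.3% in the 4 libraries. In secretory cells Col4a6 went from 227 to 219 CPM with giredestrant in WT and from 180.3 to 103 CPM in Y541S, a relative log2 ratio of -0.11 in WT and -0.81 in Y541S.

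Col4a1 and Col4a2 were higher in Y541S than in WT basal cells under vehicle. Col4a1 stood at 300.2, 401, 614 and 633 CPM there and Col4a2 at 219, 264, 342 and 340.1 CPM. The Y541S values lay above the WT values under each treatment for each gene. Under vehicle the relative log2 ratio of Y541S to WT was 1.02 (95% counting interval, 1.0 to 1.05) for Col4a1 and 0.64 for Col4a2. Without the cells that carried stroma markers the ratios were 1.04 and 0.64. Under giredestrant they were 0.76 and 0.47, the latter inside the threshold. In secretory cells Col4a1 had the opposite order under vehicle, at 20.7, 21.1, 11.4 and 14.7 CPM, and in hormone-sensing Krt14-low cells it stayed at 6.45 CPM or less.

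**Figure D2:**
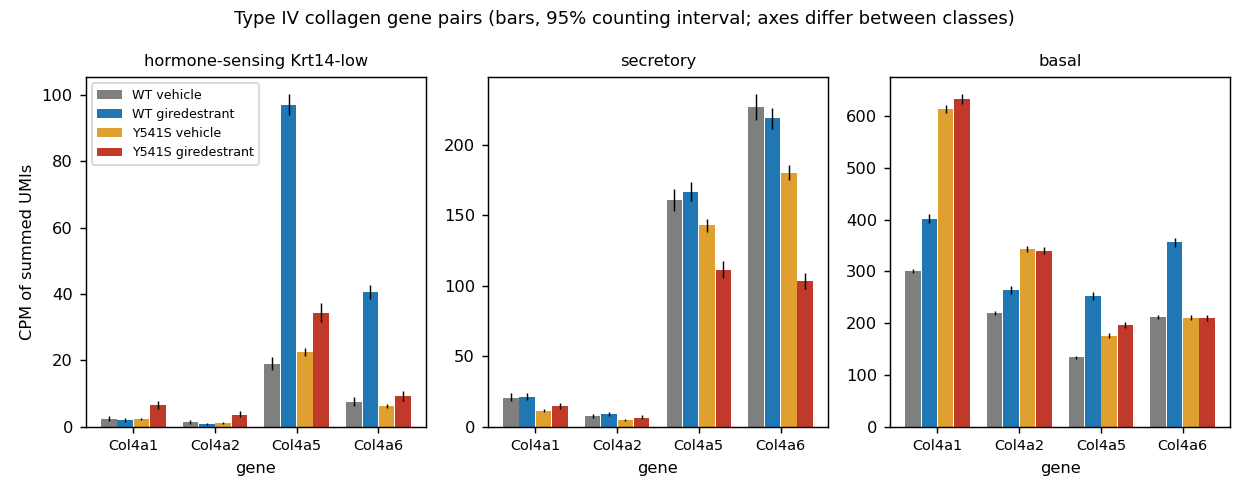
CPM of Col4a1, Col4a2, Col4a5 and Col4a6 in hormone-sensing Krt14-low, secretory and basal cells, with a bar per library and 95% counting intervals; the vertical axes differ between classes. Col4a5 and Col4a6 stand out in the WT giredestrant library among hormone-sensing cells, and Col4a1 is higher in the 2 Y541S libraries among basal cells.

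In WT hormone-sensing Krt14-low cells, Itgb6, Sparc and Lamc1 stood lowest against the median gene with giredestrant, and Col4a5 and Col4a6 highest, among members with 10 CPM or more. Of 37 members measured, 19 were lower and 9 higher than in vehicle (median relative log2 ratio -0.63), while 22.1% of all genes were lower and 22.2% higher. The median gene itself lay 0.44 above 0 on the log2 scale in this comparison, and without that shift 11 members were lower and 12 higher. By role, 8 of 11 integrin and dystroglycan genes, 5 of 9 laminin chains and 3 of 6 hemidesmosome genes were lower, and 2, 2 and 1 were higher.

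Itgb6 encodes the integrin chain that pairs with Itgav to bind and activate latent TGF-beta. It lies on chromosome 2 (60598292 to 60722643) and stood at 110.3, 13.0, 32.0 and 205 CPM in hormone-sensing Krt14-low cells, with its relative log2 ratio in WT at -3.53 (95% counting interval, -3.68 to -3.38). That is 11.6-fold lower relative to the median gene. Its partner Itgav went from 482 to 353 CPM (-0.89) and another Itgav partner, Itgb5, from 106 to 74.9 CPM (-0.95). The beta chain therefore differed more than the alpha chain it pairs with. Lamc1, the gamma chain shared by most laminins, went from 223 to 78.6 CPM, a relative log2 ratio of -1.94 (95% counting interval, -2.01 to -1.87). Its partner Lama5 was at -0.08 and Lamb2 at 0.28, so the 3 chains of this laminin did not shift together. Lamb1, the alternative beta chain, rested on 46 UMIs under vehicle and 29 under giredestrant.

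Itga3, the alpha chain of a laminin-binding integrin (chromosome 11, 95044474 to 95076801), went from 65.3 to 39.7 CPM (-1.16). Itgb4, the hemidesmosome beta chain, went from 67.8 to 45.9 CPM (-1.0), and Cd151, a tetraspanin that binds laminin-binding integrins, from 106 to 70.2 CPM (-1.04). Itga6, the alpha partner of Itgb4, was at 0.06. Without the median shift Itgb4, Itgav and Itgb5 lay inside the 1.5-fold threshold. Sparc went from 11.7 to 2.33 CPM (-2.77). These hormone-sensing cells held fibroblast markers at 83.4 CPM under vehicle and 26.2 CPM under giredestrant, of which Dcn made up 82.7 and 19.6 CPM. Without the stroma-marked cells the Sparc ratio was -3.56. In the basal cells of the WT vehicle and WT giredestrant libraries Sparc stood at 1078 and 1079 CPM. Those basal cells made up 68.2% and 32.9% of the kept cells. The basal markers in the hormone-sensing cells were also lower under giredestrant. The part of basal transcripts in the Sparc ratio was not tested.

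At 10 CPM or more, 4 members were higher in WT hormone-sensing Krt14-low cells with giredestrant, Col4a5 and Col4a6 among them. Dst, the plakin gene whose epithelial product ties the hemidesmosome to keratin, went from 373 to 925 CPM (0.87). End-sequencing does not separate the epithelial from the other products of Dst. Itga2, the alpha chain of a collagen-binding integrin, went from 4.43 to 10.6 CPM (0.82).

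In Y541S hormone-sensing Krt14-low cells the counts pointed the other way. With giredestrant 21 of 37 members were higher and 1 was lower than in vehicle (median relative log2 ratio 1.05), while 23.1% of all genes were higher and 24.2% lower. The lower member was Nid1, at under 1 CPM in each library. The higher members included 5 of 9 laminin chains, 3 of 6 hemidesmosome genes, 7 of 11 integrin genes, 2 of 4 linkers, Fn1 and Sparc.

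Lama3 and Lamb3 encode the alpha and beta chains of the laminin that hemidesmosomes bind. Lama3 stood at 2.72, 1.94, 2.86 and 141 CPM, with a relative log2 ratio in Y541S of 5.27 (95% counting interval, 5.04 to 5.52). Lamb3 stood at 7.16, 5.28, 9.66 and 43.6 CPM (1.83). For Lama3 the Y541S giredestrant library held 2265 UMIs and each of the other 3 libraries at most 156.

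Col17a1, the transmembrane collagen of the hemidesmosome, lies on chromosome 19 (47646344 to 47692094) and stood at 1.39, 0.759, 2.29 and 56.2 CPM, with a relative log2 ratio in Y541S of 4.27 (95% counting interval, 4.0 to 4.55). Itgb4 stood at 67.8, 45.9, 66.0 and 152 CPM (0.86), whereas Itga6 was at -0.03 and Dst at 0.02. The hemidesmosome genes were thus split between those that were higher and those that were not. Itga2 stood at 4.43, 10.6, 10.0 and 109 CPM (3.10, 95% counting interval 2.96 to 3.24), Itga3 at 65.3, 39.7, 53.2 and 151 CPM (1.16), and Itgb1, the common partner of these 2 chains, at 369.8, 298, 391 and 679 CPM (0.45). Itgb6 had its highest value in this library and its relative log2 ratio was 2.34 (95% counting interval, 2.25 to 2.42), opposite in sign to the WT ratio, while Itgav was at -0.16.

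Fn1 encodes fibronectin, a ligand of integrins that contain Itga5 or Itgav. It lies on chromosome 1 (71585520 to 71653200) and stood at 0.107, 0.506, 4.44 and 71.3 CPM, from 2, 18, 242 and 1149 UMIs, and its relative log2 ratio in Y541S was 3.66 (95% counting interval, 3.46 to 3.87). Itga5 stood at 10.4, 19.8, 14.6 and 34.2 CPM (0.88). The levels of Fn1 in secretory and basal cells of the Y541S giredestrant library were 1.01 and 3.83 CPM. Col18a1, the collagen that carries heparan sulfate and endostatin, went from 1.89 to 25.4 CPM (3.40), and Hspg2 from 1.43 to 13.9 CPM (2.94). Lamc1 and Lama5 did not pass the threshold, at -0.04 and -0.30.

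The 10 basal markers summed to 63.1, 33.1, 40.9 and 232 CPM in these Krt14-low cells, highest in the same library, with 0 of them at 0 UMIs. The 5 that no gate used (Krt5, Krt17, Trp63, Oxtr and Cnn1) summed to 18.2, 13.2, 14.9 and 121 CPM, against 3618 to 4434 CPM in basal cells. The part of the basal markers, and of the lower depth of that library (median 9260 UMIs in this class, against 25121 to 29583.5 in the others), in the member ratios was not tested. Among hormone-sensing cells of that library with 0 Krt14 UMIs, Lama3 was at 99.5 CPM and Fn1 at 60.7 CPM.

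**Figure D3:**
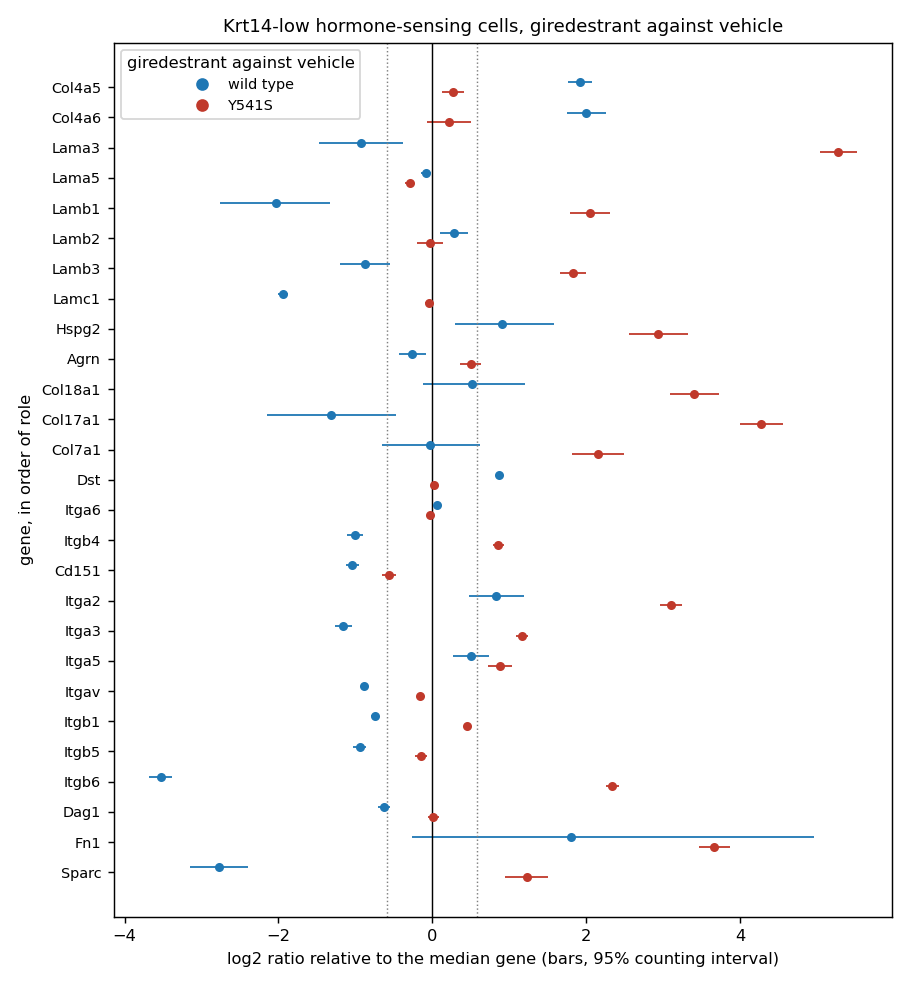
Log2 ratio of giredestrant to vehicle relative to the median gene in hormone-sensing Krt14-low cells, for the 27 members with 10 CPM or more in at least 1 of the 4 libraries, in WT (blue) and Y541S (red); bars are 95% counting intervals and dotted lines mark 1.5-fold. Itgb6, Itga3, Itgb4, Lamb1, Lamb3 and Sparc are among the genes on opposite sides of 0 in the 2 genotypes, and Col4a5 and Col4a6 are past the line in WT alone.

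Between genotypes, fewer members passed the threshold under vehicle than under giredestrant, and so did a smaller share of all genes. Under vehicle 4 of 37 members were higher and 7 lower in Y541S than in WT hormone-sensing Krt14-low cells (median -0.08), while 11.7% of all genes were higher and 11.4% lower. Itgb6 (-1.91, 95% counting interval -2.01 to -1.82) and Sparc (-1.62) were lower and Itga2 (1.05) was higher among members with 10 CPM or more. The part of basal transcripts in that Sparc ratio was not tested either. Under giredestrant 24 of 37 members were higher and 3 lower in Y541S (median 1.61), while 23.7% of all genes were higher and 23.2% lower. The 5 highest were Fn1 (7.12, 95% counting interval 6.46 to 7.88), Col17a1 (6.20), Lama3 (6.16), Lamb1 (4.57) and Itgb6 (3.97). When hormone-sensing cells were not split, the Y541S giredestrant ratio against vehicle was larger, at 6.22 for Lama3 and 5.56 for Col17a1. Counting cells of several classes in each class moved Lama3 to 5.14 and Lamb1 to 3.49. Col4a6 (-2.16) and Col4a5 (-1.51) were lower, along with Lama2 at under 3 CPM.

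The 980 hormone-sensing Krt14-high cells of the Y541S giredestrant library carried most of these genes at a higher level still. The split itself is on Krt14, a keratin of basal cells, and the values describe it. Against the Krt14-low cells of the same library, 25 of 36 members were higher and 1 lower (median relative log2 ratio 1.58), while 20.9% of all genes were higher and 20.2% lower. Col17a1 stood at 470.5 against 56.2 CPM (3.33, 95% counting interval 3.22 to 3.43), and Lama3 at 895 against 141 CPM (2.93, 95% counting interval 2.86 to 3.0). Col18a1 stood at 161 CPM (2.93), Itga2 at 633 CPM (2.79) and Hspg2 at 63.8 CPM (2.46). The lower member was Lama5, at 109 against 203 CPM (-0.64, 95% counting interval -0.74 to -0.53). The 10 basal markers summed to 2894 CPM in the Krt14-high cells, of which Krt14, the gene of the split, made up 2115 CPM and the other 9 markers 779 CPM. Acta2, the smooth muscle actin of basal cells, was at 56.1 CPM there and at 6612 CPM in the basal cells of that library. Acta2 is a gene of the basal gate, and cells meeting that gate were left out of the Krt14-high class. A difference in Acta2 between these classes was therefore built into the classing, and the values do not show how far the cells differ apart from it. The other 9 markers include the genes of the basal gate too, so their sum was also limited by it. The part of the basal markers in the member ratios was not tested.

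The laminin and integrin partners of these genes were split. Lamb3, the partner of Lama3, stood at 168 against 43.6 CPM (2.21). Lamc1, the gamma chain that pairs with Lama5, was at -0.32. Itgb1 stood at 1778 CPM (1.65), Itgb4 at 387 CPM (1.61) and Itgb6 at 587 CPM (1.78). Fn1 stood at 299.9 CPM (2.33), whereas Dst (-0.04), Dag1 (0.01) and Cd151 (-0.05) lay near the median gene.

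Higher Krt14 went with higher levels of several of these genes when the hormone-sensing cells of that library were divided into 5 bins, at 0, above 0 to 3, 3 to 10, 10 to 30 and 30 or more Krt14 UMIs per 10000, which held 954, 545, 348, 393 and 239 cells. From the lowest to the highest bin Lama3 stood at 99.5, 192, 637, 921 and 1224 CPM and Col17a1 at 37.7, 79.4, 356, 504 and 581 CPM. Itgb6 stood at 178, 239, 591, 556 and 633 CPM. Itga2 stood at 75.8, 151, 558, 658 and 698 CPM. For Lama3, Col17a1, Itgb6 and Itga2 the largest step in CPM was that from the second to the third bin. Fn1, at 60.7, 84.6, 281, 228 and 444 CPM, was lower in the fourth than in the third bin, and Lama5 was lower in each next bin, at 215, 188, 131, 105 and 85.0 CPM. Esr1, a gene of the hormone-sensing gate, stood between 371 and 428 CPM over the bins. The progesterone receptor gene Pgr, outside the gate, stood at 362, 331, 207, 132 and 119 CPM, lower in each next bin, and the luminal keratin Krt8 stood at 2066, 2075, 1091, 644 and 369 CPM. Of these hormone-sensing cells 370 lay between 1.5 and 6 Krt14 UMIs per 10000, near the split, and 53 of the Krt14-high cells rested on 1 Krt14 UMI.

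**Figure D4:**
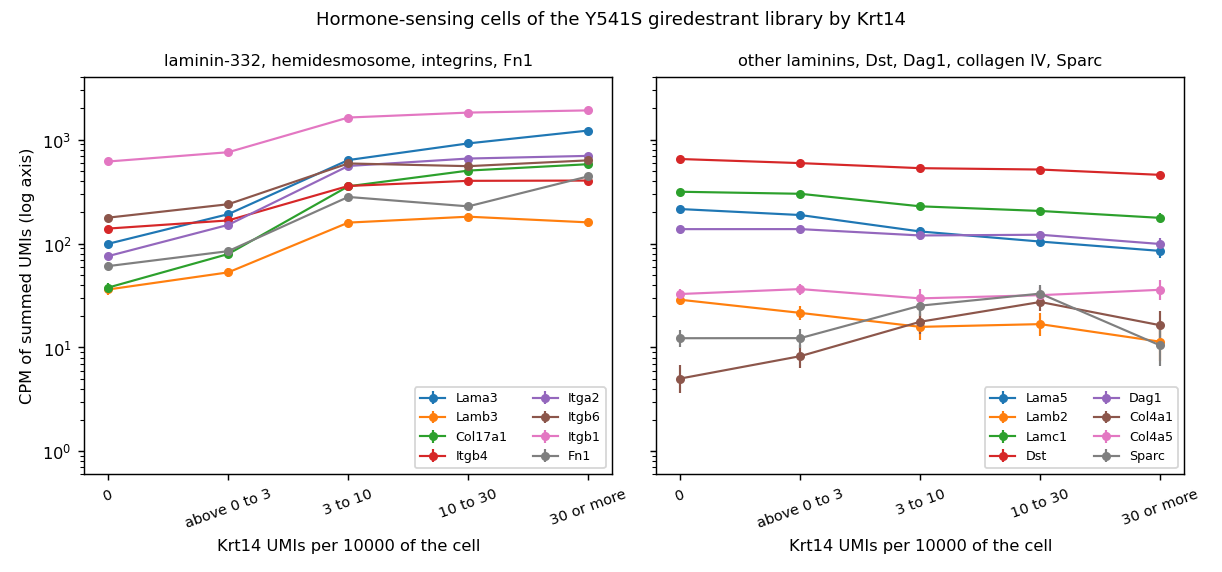
CPM (log axis) in hormone-sensing cells of the Y541S giredestrant library by bin of Krt14 UMIs per 10000; points are sums over the cells of a bin and bars 95% counting intervals. Lama3, Col17a1 and Itga2 are higher in bins of higher Krt14 in the left panel, while Lama5, Lamc1 and Dst are lower in the right panel.

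The share of cells with a UMI is given here for 4 of the members for which it was taken. After thinning to 3000 UMIs, which left out 135 shallower cells, 74.9% of Krt14-high cells held a Lama3 UMI (exact 95% interval, 71.8% to 77.8%), 66.5% an Itgb6 UMI, 59.1% a Col17a1 UMI and 31.2% an Fn1 UMI. Unthinned shares were 83.9%, 78.0%, 76.0% and 41.0%. Among Krt14-low cells the thinned shares were 19.1%, 30.5%, 10.1% and 10.2% in the same order, with 147 shallower cells left out. In secretory cells of the same library, taken as the background class, the thinned shares were 2.98%, 13.1%, 1.63% and 0.181%, with 224 shallower cells left out. Median depths were 7842 UMIs in the Krt14-high, 9260 in the Krt14-low and 6991 in the secretory cells.

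A comparison with basal cells of the same library, chosen after the values had been seen, separated the genes that Krt14-high cells and basal cells shared from those they did not. Of 40 members 11 were higher and 21 lower in Krt14-high hormone-sensing cells (median -0.98), while 23.4% of all genes were higher and 26.4% lower. Lamb3 (0.08), Col18a1 (-0.07), Dst (-0.01) and Lamc1 (0.01) were near the median gene. Fn1 stood at 299.9 against 3.83 CPM in basal cells (6.29, 95% counting interval 5.99 to 6.61) and Itgb6 at 587 against 22.1 CPM (4.73, 95% counting interval 4.60 to 4.86). Itgb4 (2.04), Itga2 (2.0) and Col17a1 (1.38) were also higher than in basal cells.

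The matrix network genes were on the other side. Col4a1 stood at 21.2 against 633 CPM (-4.90), Col4a2 at 9.73 against 340.1 CPM (-5.13) and Sparc at 24.7 against 1342 CPM (-5.77, 95% counting interval -5.96 to -5.58). Nid1 stood at 2.91 against 44.0 CPM (-3.92). Itga1 (-5.24), whose chain binds collagen, and Itga9 (-4.84) were lower as well, as was Dag1, dystroglycan, at 115 against 374 CPM (-1.70). Of the 6 type IV collagen chains 5 were lower and 0 higher. The gates bear on these ratios, since cells with 20 or more contractile UMIs per 10000 are absent from the Krt14-high class. The 2 classes also differed in stroma-marked cells, which were 19.2% of these basal cells and 0.918% of the Krt14-high cells. With the cells of several classes counted in each, Fn1 was at 4.29, Itgb6 at 3.71, Col4a1 at -2.88, Col4a2 at -2.93, Sparc at -3.29, Itga1 at -2.66 and Itga9 at -3.17.

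The few Krt14-high hormone-sensing cells of the other 3 libraries (15, 9 and 22 cells) are given as values only. They held Sparc at 169, 79.0 and 253 CPM and Fn1 at 0, 8.10 and 1.64 CPM. Lama3 stood at 238, 83.1 and 153 CPM in them. Sparc was thus higher and Fn1 lower in each of them than in the Y541S giredestrant library. The 9 basal markers other than Krt14 summed to 2038, 1254 and 1793 CPM in them, against 779 CPM in the Y541S giredestrant library, and the keratinocyte marker Krt79 reached 446 CPM in the WT giredestrant cells. The part of these markers was not tested.

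**Figure D5:**
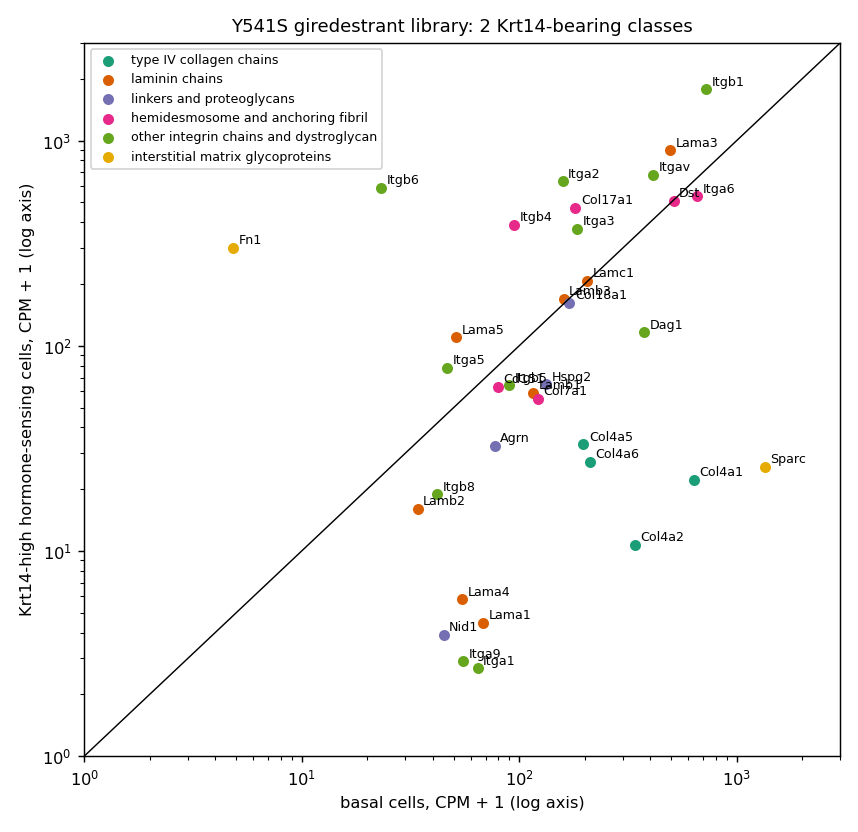
CPM + 1 (log axes) of the members with 10 CPM or more in either class, in hormone-sensing Krt14-high cells (vertical) and basal cells (horizontal) of the Y541S giredestrant library, coloured by role; the line marks equal levels. Fn1 and Itgb6 lie far above the line, and Sparc, Col4a1 and Col4a2 far below it.

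In secretory cells fewer members passed the threshold with giredestrant than in hormone-sensing Krt14-low cells, and so did a smaller share of all genes. In WT, 2 of 34 were higher and 11 lower with giredestrant (median -0.18), while 9.48% of all genes were higher and 10.7% lower. The 10 basal markers summed to 301, 180, 188 and 219 CPM in secretory cells, highest in WT vehicle, and their part in the ratios was not tested. Itgb6 went from 46.9 to 22.0 CPM (-1.15, 95% counting interval -1.36 to -0.94), Itga3 from 29.0 to 14.3 CPM (-1.08) and Itga2 from 144 to 78.1 CPM (-0.93). Hspg2 (-0.88) and Lamc1 (-0.72) were lower too, and Lama4, a laminin alpha chain, was higher at 0.59. Lamc1 was at -0.52 and Lama4 at 0.24, inside the threshold, with cells of several classes counted in each.

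In Y541S secretory cells 7 of 35 members were higher and 4 lower with giredestrant (median 0.35), while 16.4% of all genes were higher and 18.4% lower. Itga3 stood at 29.0, 14.3, 22.5 and 57.9 CPM in secretory cells, lowest under giredestrant in WT and highest under giredestrant in Y541S, where the relative log2 ratio was 1.36 (95% counting interval, 1.19 to 1.52). Dst (0.71) and Sparc (0.80) were higher and Col4a6 (-0.81) and Hspg2 (-0.68) lower. With cells of several classes counted in each, Dst was at 0.44, Sparc at 0.23 and Hspg2 at -0.29, all inside the threshold.

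Between genotypes under vehicle, 1 of 34 members was higher and 10 lower in Y541S secretory cells (median -0.29), while 6.65% of all genes were higher and 11.5% lower. Lama3 stood at 32.8, 22.3, 10.6 and 15.5 CPM (-1.60, 95% counting interval -1.84 to -1.37). Dst (-0.89), Col4a1 (-0.84), Itga2 (-0.84) and Sparc (-0.63) were lower and Lama4 (0.78) was higher. Col4a1 was at -0.43 with cells of several classes counted in each, and Sparc at -0.58 with TMM scaling. Under giredestrant 12 of 35 members were higher and 3 lower in Y541S (median 0.23), while 16.8% of all genes were higher and 18.2% lower. Itga3 (2.11), Itgb6 (1.15), Lamc1 (1.13), Itgb4 (0.78) and Itga6 (0.69) were higher and Col4a6 (-0.99) was lower. Itga6 was at 0.49 with cells of several classes counted in each.

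Most members had their highest level in basal cells. With giredestrant fewer members passed the threshold there than in hormone-sensing Krt14-low cells, and so did a smaller share of all genes. In WT, 4 of 40 members were higher and 7 lower with giredestrant (median -0.13), while 14.8% of all genes were higher and 14.3% lower. Lama1, a laminin alpha chain of early basement membranes, stood at 34.5, 84.8, 54.9 and 67.3 CPM (1.14, 95% counting interval 1.05 to 1.24), Col4a5 at 134, 252, 176 and 196 CPM (0.76) and Col4a6 at 212, 356, 210.1 and 209.8 CPM (0.60). The WT giredestrant library had the highest level of each of these 3 genes. Col4a6 lay near the threshold, at 0.54 with TMM scaling. Itga2 (-0.86), Col18a1 (-0.82), Itga1 (-0.79), Itga3 (-0.76) and Itgb4 (-0.72) were lower, with Itgb4 at -0.57 without the median shift.

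In Y541S basal cells 8 of 40 members were higher and 1 lower with giredestrant (median 0.24), while 14.3% of all genes were higher and 12.1% lower. Itgb6 stood at 4.88, 5.96, 6.36 and 22.1 CPM (1.73, 95% counting interval 1.51 to 1.95). Lama4 (0.77), Itga3 (0.71) and Itga1 (0.62) were also higher, and Itga1 was at 0.54 without stroma-marked cells. The lower member was Fn1, at 6.68 and 3.83 CPM. Stroma-marked cells were 2.86%, 4.91%, 5.02% and 19.2% of basal cells in the 4 libraries, the last in the Y541S giredestrant library, and the pericyte marker Rgs5 stood at 11.2, 4.89, 4.36 and 33.3 CPM.

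Between genotypes under vehicle 5 of 40 members were higher and 3 lower in Y541S basal cells (median 0.05), while 7.41% of all genes were higher and 12.0% lower. The higher ones were Col4a1, Col7a1, the collagen of anchoring fibrils (0.78), Lama1 (0.66), Col4a2 and Lamc1 (0.62). The lower ones, Col4a3, Lama2 and Nid2, were under 10 CPM. Col4a2 was at 0.56 and Lama1 at 0.58, inside the threshold, with cells of several classes counted in each. Under giredestrant 16 of 40 were higher and 3 lower (median 0.49), while 16.5% of all genes were higher and 16.5% lower. Itgb6 (2.0), Itga2 (1.42), Lama4 (1.32), Itga3 (1.17) and Itga1 (0.91) led the higher ones, and Col4a6 (-0.66) was lower. Under giredestrant stroma-marked cells were 19.2% of the Y541S and 4.91% of the WT basal cells.

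Itga3 was the only one of the 40 genes past the threshold in opposite directions in the 2 genotypes in all 3 classes. In WT it was lower with giredestrant in hormone-sensing Krt14-low (-1.16), secretory (-1.08) and basal cells (-0.76). In Y541S it was higher in the same classes (1.16, 1.36 and 0.71). With 1 library per group, an effect of genotype and treatment on Itga3 and a difference between the libraries cannot be told apart.

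Genes around the matrix and the integrins were taken from 3 further lists. In the comparisons of hormone-sensing Krt14-low cells with giredestrant, 22.2% of all genes were higher and 22.1% lower in WT, and 23.1% higher and 24.2% lower in Y541S. Between Krt14-high and Krt14-low cells, 20.9% of all genes were higher and 20.2% lower. Among 20 adhesion adaptor and signalling genes, 18 were measured in hormone-sensing Krt14-low cells. With giredestrant 3 were higher and 8 lower in WT, and 7 higher and 1 lower in Y541S. In WT the actin crosslinker Flna went from 41.0 to 20.1 CPM (-1.47), and the focal adhesion genes Zyx (-1.11) and Vcl (-1.10) were lower. Between Krt14-high and Krt14-low cells of the Y541S giredestrant library 14 of 18 adaptors were higher and 1 lower, among them Zyx at 182 against 60.8 CPM (1.84).

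Among 21 matrix processing genes, 3 of 16 measured were higher and 11 lower with giredestrant in WT hormone-sensing Krt14-low cells. In Y541S 9 of 18 were higher and 5 lower. P4ha2, a collagen prolyl hydroxylase subunit, stood at 132, 9.36, 195 and 42.1 CPM, and Timp1, a metalloproteinase inhibitor, at 75.5, 12.6, 41.6 and 3.23 CPM. Each was lower with giredestrant in WT and in Y541S. Serpinh1, a collagen chaperone, stood at 6.30, 6.43, 7.65 and 81.8 CPM, highest in the Y541S giredestrant library. Between Krt14-high and Krt14-low cells 8 of 16 were higher and 4 lower.

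Among 26 other basement membrane, matrix and integrin genes, 5 of 16 were higher and 5 lower with giredestrant in WT hormone-sensing Krt14-low cells, and 11 of 20 higher and 2 lower in Y541S. Tinagl1, a secreted basement membrane protein, stood at 349.7, 75.6, 356 and 93.0 CPM, lower with giredestrant in each genotype. Egflam, the dystroglycan ligand pikachurin, stood at 4.86, 42.6, 9.33 and 19.9 CPM, highest in WT giredestrant as were Col4a5 and Col4a6. Between Krt14-high and Krt14-low cells 14 of 20 were higher and 2 lower, with Thbs1, the matricellular protein thrombospondin, at 232 against 23.2 CPM (3.58).

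In secretory cells 9.48% of all genes were higher and 10.7% lower with giredestrant in WT, and 16.4% and 18.4% in Y541S. The adaptor list had 0 of 18 genes higher and 3 lower with giredestrant in WT and 3 of 18 higher and 1 lower in Y541S. The processing list had 0 of 14 higher and 6 lower in WT and 2 of 16 higher and 5 lower in Y541S, with the metalloproteinase inhibitor Timp3 lower in each, at 92.3, 14.8, 41.0 and 11.0 CPM. In basal cells, where the shares of all genes were 14.8% higher and 14.3% lower in WT and 14.3% and 12.1% in Y541S, 0 of 19 adaptors were higher and 4 lower in WT, and 2 of 20 higher and 0 lower in Y541S. Thbs1 stood at 669.8, 251, 512 and 761 CPM in basal cells, lowest in the WT giredestrant library (-1.57). Other basement membrane genes had 6 of 25 higher and 5 lower with giredestrant in WT basal cells and 8 of 25 higher and 5 lower in Y541S.

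Between genotypes in hormone-sensing Krt14-low cells under vehicle, 2 of 18 adaptors, 3 of 16 processing genes and 5 of 18 other basement membrane genes were higher in Y541S, and 2, 4 and 1 were lower, while 11.7% of all genes were higher and 11.4% lower. Under giredestrant 6 of 18, 9 of 18 and 10 of 19 were higher and 0, 2 and 3 lower, while 23.7% of all genes were higher and 23.2% lower. Against basal cells of the same library, Krt14-high hormone-sensing cells had 5 of 19 adaptors higher and 10 lower, 2 of 15 processing genes higher and 9 lower, and 5 of 22 other basement membrane genes higher and 11 lower, while 23.4% of all genes were higher and 26.4% lower.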

How the data were processed

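UMI counts per gene and cell barcode in 4 libraries were deposited by the authors as raw integer counts. Per the file headers they come from Cell Ranger 6.0.1, and per the submitters' processing notes the genome was GRCm38. No normalization was applied in the deposited counts, and the lowest barcode total was 500 to 502 UMIs per library. Filtering on 1000 UMIs, 500 detected genes and a mitochondrial share of 15% left 7082, 3029, 7217 and 8622 of 8114, 3667, 7812 and 10469 barcodes (WT vehicle, WT giredestrant, Y541S vehicle, Y541S giredestrant). The 6 pairs of libraries shared 81 barcodes in all, which were kept.

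Cells were classed by the marker gates given above, and the 103, 157, 291 and 267 cells meeting several gates were left out. No doublet caller was run. An alternative left out the cells with the top 5% of UMIs. UMIs were summed per class and library, with exact Poisson intervals for levels and exact binomial intervals for ratios, in Python 3.11.15 with numpy 2.4.6, scipy 1.17.1 and pandas 2.3.3. These intervals hold no variation between animals. No test was made, each group being 1 library. The calculation was tested on simulated counts. TMM scaling used edgeR 4.0.16 in R 4.3.3 for scaling factors alone.

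The 40 genes, the other gene lists and the markers were chosen with earlier results of these data known. Members named were up to 5 in each direction per comparison, with a 1.5-fold difference, 20 UMIs and 10 CPM or more, together with their complex partners and genes that illustrate a role. Alternatives were no shift, TMM, several-class cells counted in each class, stroma-marked cells left out, cells of 3000 or more UMIs, no minimum count, equal weight of cells, and, added after seeing the data, hormone-sensing cells not split and a Krt14 threshold of 6. The planned comparison of Krt14-high cells between libraries was not made, since 3 libraries held 9 to 22 such cells. The values of 1 gene of the other lists are not reported here.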

Additional observations from a re-analysis of the deposited data

Results flagged for a closer look

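Among members with 10 CPM or more in each genotype, 7 giredestrant ratios lay past 1.5-fold in opposite directions in WT and Y541S, and the difference was not tested, since each group is 1 library. As Y541S minus WT on the relative log2 scale, the difference in hormone-sensing Krt14-low cells was 5.87 for Itgb6, 3.99 for Sparc, 2.32 for Itga3 and 1.86 for Itgb4. In secretory cells it was 2.43 for Itga3. In basal cells it was 1.47 for Itga3 and 1.41 for Itga1. Without the median shift the WT ratio of Itgb4 lay inside the 1.5-fold threshold. The part of basal transcripts in the WT ratio of Sparc was not tested.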

How the results depend on the processing

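Of 244 counts of higher and lower members under alternatives, 215 stayed within 1.5 times the reported count and 29 moved. Of 752 ratios of named genes, 581 stayed inside the counting interval of the reported ratio, 171 moved and 0 reversed. The 1.5-fold call was not part of this count, so a ratio counted as unchanged could still cross the threshold. Sparc in secretory cells between genotypes under vehicle, for example, stayed inside its interval with TMM but no longer passed the threshold. Without the median shift the lower members numbered 11 (WT giredestrant against vehicle, hormone-sensing Krt14-low), 0 (the same in Y541S) and 3 (Krt14-high against Krt14-low). With TMM the lower members were 2 in the Y541S giredestrant comparison and 5 in Y541S against WT under giredestrant, both in hormone-sensing cells. With stroma-marked cells left out, 0 were lower in Y541S hormone-sensing cells with giredestrant, 0 were higher in WT secretory cells, and 1 was lower in basal cells between genotypes under giredestrant. With the top 5% of UMIs left out, 2 were lower in Y541S hormone-sensing cells, 1 was higher in WT and 11 in Y541S secretory cells with giredestrant, 1 was lower in basal cells between genotypes under vehicle, and 2 were lower in the Krt14 split. With cells of 3000 or more UMIs, 0 were lower in Y541S hormone-sensing cells. With no minimum count, 2 and 5 were lower in hormone-sensing cells (Y541S giredestrant against vehicle, and between genotypes under giredestrant), 5 and 4 were higher in secretory cells (WT giredestrant, and between genotypes under vehicle), and 2 were lower in the Krt14 split. With equal weight of cells, 2 were lower in Y541S hormone-sensing cells, 1 was higher in WT secretory cells, 7 were higher in WT basal cells and 2 were lower in the Krt14 split. With cells of several classes counted in each, 0 were higher and 18 lower in WT secretory cells with giredestrant, 2 were higher in secretory cells between genotypes under vehicle, and in basal cells 0 were lower with giredestrant in Y541S and 3 higher between genotypes under vehicle. Without the Krt14 split (chosen after seeing the data), 5 were lower between genotypes under giredestrant. A Krt14 threshold of 6 (also chosen later) moved none of its 12 counts. Unthinned shares were 83.9% (Lama3), 78.0% (Itgb6), 41.0% (Fn1) and 76.0% (Col17a1) in Krt14-high cells, and 78.7% and 36.4% for Col4a5 in WT giredestrant and vehicle. The cause of these shifts was not tested.

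No paired analysis was possible because each group has 1 library. Genotype, treatment and library cannot be told apart from handling of single libraries, and depth differed between libraries. Members under 10 CPM, among them Col4a3, Col4a4, Lama2, Lamc3 and Nid2, rest on few UMIs.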
